A study of Mus musculus with 16 samples.

Results

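Prostaglandin synthesis was followed through 5 genes, Ptgs1, Ptgs2, Ptges, Ptges2 and Ptges3, in cultured mouse cortical neurons depolarised with KCl. Probe sets were taken as members where the platform annotation gave them one of these symbols and no other. This selected 6 probe sets of 3 genes, out of 45037 probe sets and 18194 genes on the array. Ptgs2 had 2 probe sets, Ptges had 3 and Ptges2 had 1. No probe set carried the symbol Ptgs1 in the annotation used here, and Ptgs1 was not analysed here. Both probe sets for Ptges3 were annotated to Ptges3 and to its pseudogene Ptges3-ps together, so they are given under both names and left out of the counts. Of the 6 member probe sets, 4 lay above the low-value threshold and were tested, namely both for Ptgs2, the one for Ptges2 and 1 of the 3 for Ptges.

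The neurons came from C57BL/6 cortices at embryonic day 16.5 and were studied after 7 days in culture. Lentivirus on day 5 brought in either c-Fos shRNA or, as control, an shRNA to firefly luciferase, which mouse cells lack. On day 7 the cultures, silenced beforehand, received KCl for 0, 1, 3 or 6 h. The c-Fos arm and the control arm each held 4 times with 2 Affymetrix mouse expression arrays per time, so there were 16 arrays in 8 groups. All groups share the strain, the lentiviral infection (6 h, with polybrene at 6 µg per ml) and the silencing. The labels name 1 shRNA against c-Fos, so an effect on Fos and an off-target effect of that hairpin cannot be told apart. The arrays of a group are called biological replicates, but separate dissections are not stated, so p-values measure the spread between arrays, which may be technical.

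Prostaglandins are lipid signals made on demand from arachidonic acid, which phospholipases and lipases free from membranes. The cyclooxygenases, Ptgs1 (COX-1) and Ptgs2 (COX-2), turn it into prostaglandin H2, and terminal synthases then make the separate prostanoids. Ptges, Ptges2 and Ptges3 encode synthases for prostaglandin E2, which acts on the EP receptors. In forebrain neurons Ptgs2 is known as an inducible gene that follows synaptic activity, whereas Ptges2 and Ptges3 are regarded as largely constitutive. Ptges is known as the synthase induced together with Ptgs2 in inflammation.

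Fos, the target of the shRNA, was lower in the c-Fos arm at every time. Its deposited intensity at 1 h averaged 8675 ± 1340 in the c-Fos arm and 14680 ± 60.5 in the control arm (SD, n = 2 each). At 6 h it averaged 3241 ± 140 in the c-Fos arm and 11930 ± 44.5 in the control arm. Fos still rose with KCl in the c-Fos arm, so the arm had less Fos mRNA and not none. Array medians ran from 104.75 to 118.56. All 6 pan-neuronal markers were above the low-value threshold, and so were all 8 astrocyte markers. Of 11 microglial markers 2 were. The summed intensity of all 11 was 407.2 to 515.7 over the c-Fos arrays and 392.5 to 451.4 over the control arrays. No tested microglial marker was called at 6 h in either arm or between the arms. Some markers of other cells moved. Of 5 inhibitory neuron markers, 4 were called higher at 6 h of KCl in the c-Fos arm, where 32.1% of all probe sets were called, and 3 in the control arm, where 35.4% were. The summed intensity of all 5 was 10070 to 15600 over the c-Fos arrays and 11240 to 15190 over the control arrays. Of the 8 astrocyte markers, 1 was higher and 3 were lower with c-Fos shRNA averaged over the 4 times, where 39.1% of all probe sets were called. The sums of all 8 were 15430 to 23040 over the c-Fos arrays and 17240 to 25570 over the control arrays. Between the arms at 6 h, 2 of the 6 pan-neuronal markers were called higher and 1 lower with c-Fos shRNA. Of 5 tested excitatory neuron markers 1 was called higher and 0 lower, where 17.2% of all probe sets were called. No tested marker of inhibitory neurons, astrocytes, the oligodendrocyte lineage, vascular cells or progenitors was called between the arms at 6 h. The part of any of these cells in the results below was not tested, and in such bulk samples fewer cells of a type and less RNA per cell cannot be told apart.

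Ptgs2, the inducible cyclooxygenase, was the member that responded. It rose with KCl in both arms, and at 3 h and 6 h it was lower with c-Fos shRNA than with control shRNA. At 6 h its intensity in the c-Fos arm was 34.5% of that in the control arm on the brighter probe set and 24.4% on the dimmer one. Ptges2 and the tested Ptges probe set showed no called change in any contrast of the fit without a replicate block.

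The promoter of Ptgs2 is shown because it is the member that moved, and that of Ptges2 because it is a member with no called change in the same fit. Both windows are RefSeq sequence on GRCm38.p6, from 250 bases before to 50 bases after the annotated start, 5′ to 3′ on the gene's strand. The Ptgs2 window is chr1:150099781-150100080 on the plus strand and the Ptges2 window is chr2:32395640-32395939 on the plus strand. Capitals mark the matches to the motifs described after them.
Ptgs2: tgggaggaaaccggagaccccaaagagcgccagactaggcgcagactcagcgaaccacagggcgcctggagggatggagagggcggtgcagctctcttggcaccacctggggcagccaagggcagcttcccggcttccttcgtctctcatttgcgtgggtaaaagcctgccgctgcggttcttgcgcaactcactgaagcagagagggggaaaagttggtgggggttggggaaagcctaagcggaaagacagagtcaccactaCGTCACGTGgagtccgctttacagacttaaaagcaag
Ptges2: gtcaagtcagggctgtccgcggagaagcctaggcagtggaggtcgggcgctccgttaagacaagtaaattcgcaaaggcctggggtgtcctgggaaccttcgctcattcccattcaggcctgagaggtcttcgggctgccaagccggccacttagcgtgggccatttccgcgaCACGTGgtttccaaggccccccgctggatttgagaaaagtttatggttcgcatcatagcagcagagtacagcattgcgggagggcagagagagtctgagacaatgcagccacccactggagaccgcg
Both strands were searched for TGACGTCA (the full cyclic AMP response element, bound by CREB and ATF proteins) and its core TGACG, which lies within that element. They were also searched for CACGTG (an E-box) and for TGANTCA, a pattern that includes the sites of AP-1. AP-1 is a family of dimers, some of which contain Fos. The proteins named here are not the only ones that can bind each motif. The Ptgs2 window held 1 core, read on the reverse strand as CGTCA from 14 to 18 bases after the annotated start. It also held 1 CACGTG from 17 to 22 bases after that start, so these overlap. Where transcription begins in these cells was not measured, so such positions do not show that a motif is transcribed. Among 32851 RefSeq promoter windows of 300 bases, 20.8% held the core, 7.15% held CACGTG and 0.451% held both in overlap. TGANTCA, which 7.81% of windows held, was not in the Ptgs2 window, and neither was the full TGACGTCA, held by 1.79%. The Ptges2 window held 1 CACGTG, from 77 to 72 bases before the start, and none of the other motifs. The Ptges3 window held 1 core, read on the reverse strand as CGTCA from 12 to 16 bases after its start, and none of the other motifs. The windows of Ptges, Ptgs1, Ptger3 and Ptger4 held none of the motifs. These are letters in a window and say nothing of binding here or of elements farther away.

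The brighter Ptgs2 probe set (1417262_at) was low before KCl in both arms. At 0 h the arrays read 37.8 and 8.67 with c-Fos shRNA, against 28.1 and 17.3 with control shRNA. At 1 h they read 177 and 132 with c-Fos shRNA, against 129 and 120 with control shRNA. Both arms had thus left the baseline by 1 h, with the c-Fos arrays slightly above the control arrays. At 3 h the arrays read 104 and 147 with c-Fos shRNA, against 309 and 331 with control shRNA. At 6 h they read 127 and 153 with c-Fos shRNA, against 356 and 457 with control shRNA. At these later times every control array was above every c-Fos array, and the c-Fos arrays of 3 h and 6 h lay in the range of their own 1 h arrays or just below it.

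The dimmer Ptgs2 probe set (1417263_at) had the same order of arms at 3 h and 6 h but a slower start. At 0 h the arrays read 11.7 and 14.9 with c-Fos shRNA, against 12.7 and 6.24 with control shRNA. At 1 h they read 28.5 and 23.9 with c-Fos shRNA, against 38.8 and 49.4 with control shRNA. At 3 h they read 43.4 and 78.1 with c-Fos shRNA, against 138 and 181 with control shRNA. At 6 h they read 63.2 and 113 with c-Fos shRNA, against 308 and 415 with control shRNA. From 1 h on the arms did not overlap on this probe set, and both were higher at 6 h than at 1 h. With 2 arrays per group such separation says little. The arms of Ptges2, with no called difference, also did not overlap at 3 h and 6 h. The share of all probe sets with such separation was not counted. At 1 h the probe sets differed in the order of the arms, since the brighter one was higher with c-Fos shRNA and the dimmer one lower, and neither difference was called. Levels of different probe sets are not comparable with each other, so only their changes are set side by side.

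**Figure D1:**
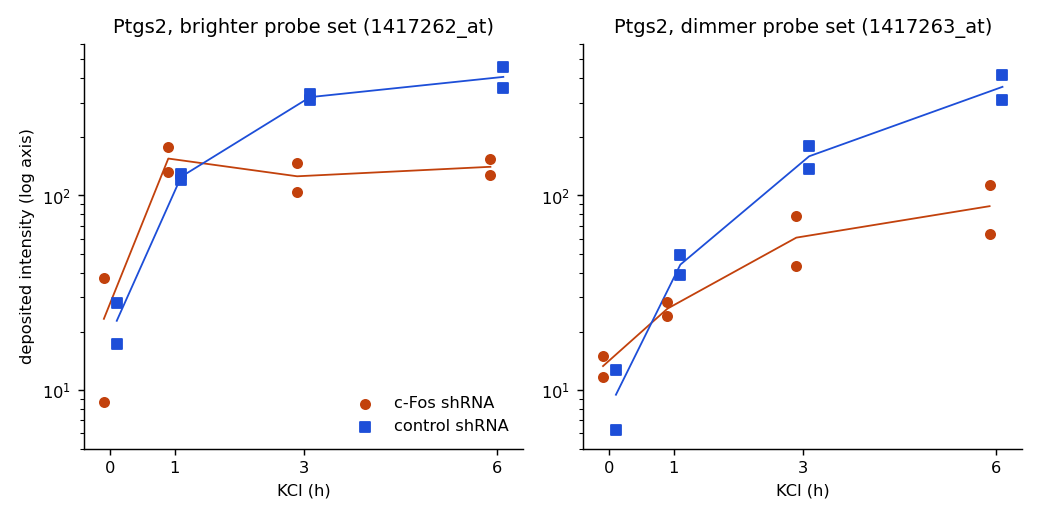
Deposited intensity (log axis) of the 2 Ptgs2 probe sets against hours of KCl, 1 point per array, with circles for c-Fos shRNA, squares for control shRNA and lines through the group means (n = 2). The arms start together, and at 3 h and 6 h every c-Fos array lies below every control array on both probe sets.

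The KCl response of Ptgs2 was called in both arms at 3 h and 6 h on both probe sets. All changes and tests are from limma on quantile-normalised log2(intensity + 16), and a call means a Benjamini-Hochberg adjusted p below 0.05 over the 31526 probe sets tested. This scale understates the change of dim probe sets. The standard error of these changes was 0.31 for the brighter probe set. In the c-Fos arm the 1 h rise of this probe set was 2.21 (adjusted p = 0.00154), the 3 h rise was 1.96 (adjusted p = 0.000674) and the 6 h rise was 2.12 (adjusted p = 0.000232). In the control arm the 1 h rise was 1.84 (adjusted p = 0.00495), the 3 h rise was 3.14 (adjusted p = 1.67e-05) and the 6 h rise was 3.50 (adjusted p = 4.42e-06). The dimmer probe set, with a standard error of 0.26, changed by 0.55 at 1 h in the c-Fos arm, which was not called (adjusted p = 0.467). Its 3 h rise in that arm was 1.36 (adjusted p = 0.00251) and its 6 h rise was 1.79 (adjusted p = 0.000225). In the control arm its 1 h rise was 1.24 (adjusted p = 0.0204), its 3 h rise was 2.78 (adjusted p = 1.1e-05) and its 6 h rise was 3.93 (adjusted p = 5.22e-07). At 1 h the call of the dimmer probe set in the control arm was lost with a pseudocount of 64 (0.56, adjusted p = 0.125). Leaving out 1 array at a time, the 1 h rise in the control arm lost its call without any of the 4 control arrays of 0 h and 1 h on the dimmer probe set (1.06 to 1.42), and on the brighter one without control 0 h replicate 2 (1.64, adjusted p = 0.058) or control 1 h replicate 1 (1.78, adjusted p = 0.0559).

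The calls among the tested members stood against the following shares of all probe sets. With c-Fos shRNA, 1 of 4 tested member probe sets was called at 1 h, where 2.96% of all probe sets were, and 2 of 4 were called at 3 h and at 6 h, where 20.9% and 32.1% of all probe sets were. With control shRNA, 2 of 4 were called at 1 h, 3 h and 6 h, where 3.11%, 23.3% and 35.4% of all probe sets were. In each case the called probe sets were those for Ptgs2. At 6 h a called change was common on this array, and the median change of all probe sets tested was -0.02 in both arms.

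The steps between neighbouring times were read within each arm, and their difference between the arms was not tested. In the control arm the brighter Ptgs2 probe set rose by another 1.29 from 1 h to 3 h (standard error 0.31, adjusted p = 0.0138), and the dimmer one by 1.54 (standard error 0.26, adjusted p = 0.00172). For the 6 h against 3 h step in the control arm, the dimmer probe set rose by 1.15 (adjusted p = 0.0147), and the brighter one changed by 0.36, which was not called (adjusted p = 0.583). In the c-Fos arm no step after 1 h was called on either probe set. The brighter one changed by -0.25 for 3 h against 1 h (95% interval -0.92 to 0.42) and by 0.16 for 6 h against 3 h (95% interval -0.51 to 0.83). The dimmer one changed by 0.80 for 3 h against 1 h (adjusted p = 0.064) and by 0.43 for 6 h against 3 h (adjusted p = 0.362). With the replicate number as a block, the 3 h against 1 h step of the dimmer probe set was called in the c-Fos arm (adjusted p = 0.016). The shares of all probe sets called for the 3 h against 1 h step were 13.1% in the c-Fos arm and 14.6% in the control arm, and for the 6 h against 3 h step 10.6% in the c-Fos arm and 10.4% in the control arm. Leaving out 1 array took these shares to as low as 6% in the c-Fos arm and 7.55% in the control arm for the first step, and 4.03% in the c-Fos arm and 4.55% in the control arm for the second. With a pseudocount of 1, the called steps of the brighter probe set at 3 h and of the dimmer one at 6 h in the control arm were no longer called (adjusted p = 0.0841 and 0.0525). The first lost its call without any 1 of the 4 control arrays of 1 h and 3 h (1.24 to 1.35, adjusted p up to 0.0896). The second lost it without control 3 h replicate 1 (0.98, adjusted p = 0.112) or control 6 h replicate 2 (0.96, adjusted p = 0.108). By group mean the control arm went 0 h, 1 h, 3 h and 6 h on both probe sets, with 3 h and 6 h not separated on the brighter one. In the c-Fos arm, without the replicate block, 3 h was not separated from 1 h, nor 6 h from 3 h, on either probe set. In that arm 1 h was separated from 0 h on the brighter probe set and not on the dimmer one.

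The difference between the arms was read directly at each time. At 0 h no difference was called for Ptgs2, with c-Fos minus control differences of -0.08 (95% interval -0.75 to 0.59) on the brighter probe set and 0.20 (95% interval -0.36 to 0.76) on the dimmer one. At 1 h the differences were 0.29 (95% interval -0.39 to 0.96) and -0.49 (95% interval -1.05 to 0.07), and neither was called. At 3 h Ptgs2 was lower in the c-Fos arm by both probe sets, with differences of -1.26 (standard error 0.31, adjusted p = 0.0139) and -1.22 (standard error 0.26, adjusted p = 0.00603). At 6 h the differences were -1.46 (standard error 0.31, adjusted p = 0.0065) and -1.94 (standard error 0.26, adjusted p = 0.000341). At 3 h and at 6 h 2 of 4 tested member probe sets were called, where 17.1% and 17.2% of all probe sets were. At 0 h and 1 h 0 of 4 were, where 15.6% and 14.5% of all probe sets were. Averaged over the 4 times, the differences were -0.63 (adjusted p = 0.00608) and -0.86 (adjusted p = 0.000192), and 39.1% of all probe sets were called in that contrast.

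In the fit without the replicate block, the call of the 3 h difference of Ptgs2 rested on few arrays. The brighter Ptgs2 probe set lost its 3 h call with a pseudocount of 1 (-1.36, adjusted p = 0.0838), and in 3 of 16 cases of leaving out 1 array, namely c-Fos 3 h replicate 1, control 3 h replicate 1 or control 3 h replicate 2. The dimmer one lost it without c-Fos 3 h replicate 1 (adjusted p = 0.0707) or control 3 h replicate 2 (adjusted p = 0.0525). The 6 h difference stayed called on both probe sets in all 16 cases, at -1.61 to -1.31 on the brighter one and -2.23 to -1.66 on the dimmer one.

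**Figure D2:**
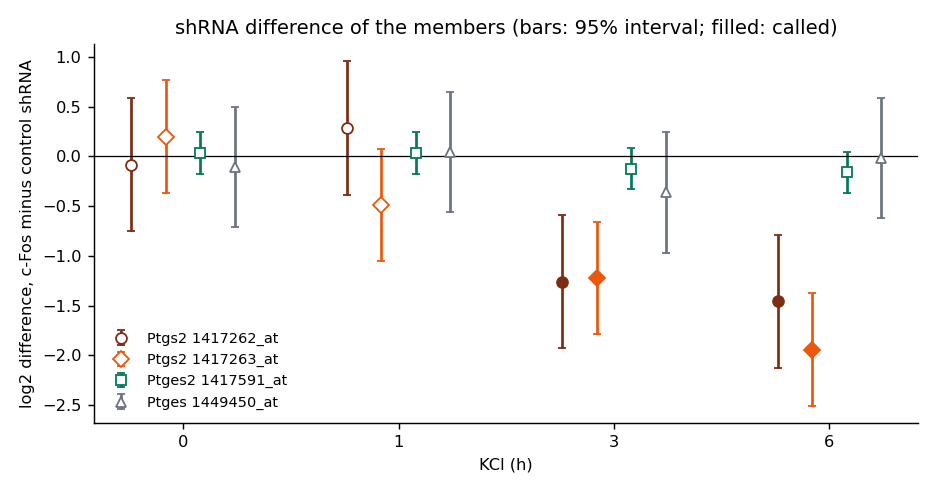
Difference in log2 level, c-Fos minus control shRNA, of the 4 tested member probe sets at each KCl time, with 95% intervals from limma and filled symbols for called differences. Both Ptgs2 probe sets lie near 0 at 0 h and between -1.94 and -1.22 at 3 h and 6 h, while Ptges2 and Ptges have intervals that include 0 at every time.

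The interaction asks how far the KCl response depended on the shRNA, as the response in the c-Fos arm minus that in the control arm. At 6 h it was -2.14 on the dimmer Ptgs2 probe set (standard error 0.36, adjusted p = 0.0327), which was called. It was -1.38 on the brighter one (95% interval -2.32 to -0.43), which was not called after adjustment (adjusted p = 0.234). Of all probe sets, 0.387% were called in this contrast, and 1 of the 4 tested member probe sets was. The call depended on the processing, since it was lost without further normalisation (-2.10, adjusted p = 0.0619), with a pseudocount of 1 (-2.60, adjusted p = 0.0593) and in 10 of 16 cases of leaving out 1 array. The value itself ran from -2.43 to -1.85 over those 16 cases. With the replicate block the adjusted p at 6 h was 0.00233 on the dimmer probe set and 0.058 on the brighter one. At 3 h the interaction was -1.42 on the dimmer probe set (adjusted p = 0.238) and -1.18 on the brighter one (adjusted p = 0.604), and neither was called. With the replicate block the dimmer one was called at 3 h (adjusted p = 0.0367). At 1 h it was -0.69 on the dimmer probe set and 0.37 on the brighter one (adjusted p = 1 for both). The shares of all probe sets called were 0.155% at 3 h and 0.00634% at 1 h. The 3 interactions share the 0 h arrays, among which the brighter probe set had its widest spread within a group. Without c-Fos 0 h replicate 2, the array that read 8.67, the 6 h interaction of the brighter probe set was -1.95, and without replicate 1 of that group it was -0.80.

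In linear terms, 6 h of KCl added 117.1 intensity units to the c-Fos arm and 383.8 to the control arm on the brighter Ptgs2 probe set. On the dimmer one it added 74.8 in the c-Fos arm and 351.9 in the control arm. At 1 h the gains on the brighter probe set were 131.5 in the c-Fos arm and 102.1 in the control arm. At 3 h they were 102.2 in the c-Fos arm and 297.3 in the control arm. On the dimmer probe set the 1 h gains were 12.9 in the c-Fos arm and 34.7 in the control arm. From 1 h to 3 h the Fos probe set (1423100_at) changed by -1.12 in the c-Fos arm (adjusted p = 5.27e-05) and -0.12 in the control arm (adjusted p = 0.551). After KCl the control readings of Fos were among the brightest on the array and may be compressed. A link between the Ptgs2 and Fos changes over that step was not tested.

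Ptges2, the membrane-associated synthase regarded as constitutive, was measured well above the threshold and stayed within a narrow range. Its intensity (1417591_at) ran from 716.1 to 976.9 over all 16 arrays, with a median of 884.6. At 6 h the arrays read 747 and 716 with c-Fos shRNA, against 771 and 857 with control shRNA. At 0 h they read 886 and 878 with c-Fos shRNA, against 896 and 819 with control shRNA. The 6 h c-Fos arrays were the lowest of the series, below both 6 h control arrays. The change at 6 h against 0 h was -0.22 with c-Fos shRNA (95% interval -0.42 to -0.01, adjusted p = 0.109) and -0.02 with control shRNA (95% interval -0.23 to 0.18). Neither was called, but the change in the c-Fos arm was called with the replicate block (adjusted p = 0.0418) and without further normalisation (-0.26, adjusted p = 0.0418). The c-Fos minus control difference was -0.16 at 6 h (95% interval -0.37 to 0.05) and 0.03 at 0 h (95% interval -0.17 to 0.24). The 6 h changes of Ptgs2 in its own arms lie outside these intervals.

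Ptges, the inducible synthase of inflammation, was dim on all 3 probe sets. The tested one (1449450_at) ran from 30.7 to 68.3 over the 16 arrays, with a median of 61.8. At 6 h it read 40.3 and 62.6 with c-Fos shRNA, against 40.1 and 66.4 with control shRNA. At 0 h it read 44.9 and 61.1 with c-Fos shRNA, against 51.5 and 66.0 with control shRNA. The arms overlapped at each of the 4 times, and the replicate 2 array was the higher one in 7 of 8 groups. The change at 6 h against 0 h was -0.04 with c-Fos shRNA (95% interval -0.65 to 0.56) and -0.13 with control shRNA (95% interval -0.73 to 0.47), so a rise of the size seen in Ptgs2 lies outside both intervals. The other Ptges probe sets lay below the threshold, at 20.4 to 57.8 (1439747_at) and 12.5 to 40.2 (1449449_at). With no filter on low values neither was called in any contrast, and their smallest adjusted p was 0.132, for 1449449_at at 3 h in the control arm (0.58, 95% interval 0.08 to 1.08). Probe sets this dim cannot show whether the gene is expressed.

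**Figure D3:**
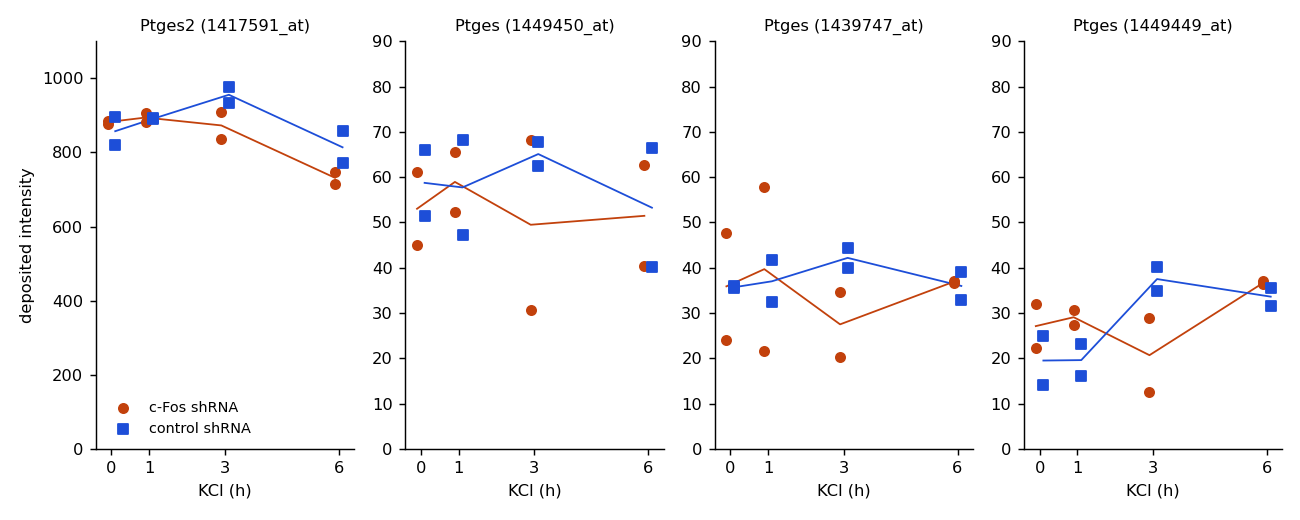
Deposited intensity (linear axes from 0) of Ptges2 and of the 3 Ptges probe sets against hours of KCl, 1 point per array, with circles for c-Fos shRNA, squares for control shRNA and lines through the group means (n = 2). Ptges2 stays between 716.1 and 976.9 and the Ptges probe sets between 12.5 and 68.3, with no called change in either arm without the replicate block.

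The probe sets annotated to both Ptges3 and Ptges3-ps were among the brightest on the array. Ptges3 encodes p23, known as a cochaperone of Hsp90 as well as a prostaglandin E synthase. Over the 16 arrays 1417998_at ran from 8745 to 10450 and 1460221_at from 9195 to 11190. The highest array was 1.20 times the lowest on 1417998_at and 1.22 times the lowest on 1460221_at. The change at 6 h against 0 h on 1460221_at was 0.18 with c-Fos shRNA (adjusted p = 0.0377), which was called, and 0.15 with control shRNA (adjusted p = 0.0698), which was not. On 1417998_at it was 0.07 with c-Fos shRNA (adjusted p = 0.307) and 0.01 with control shRNA (adjusted p = 0.939). The first call was lost without any 1 of the 4 c-Fos arrays of 0 h and 6 h (0.14 to 0.21), and with the replicate block the control change on 1460221_at was called (adjusted p = 0.00486). No c-Fos minus control difference was called on either, and values of such bright probe sets may be compressed. Signals of the gene and its pseudogene cannot be told apart on these probe sets.

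The wider pathway was counted over 75 symbols in 9 lists, with 69 on the array and 59 tested, each read on its brightest probe set. At 6 h of KCl 8 rose and 14 fell with c-Fos shRNA, and 8 rose and 16 fell with control shRNA. That is 37.3% and 40.7% of the tested genes, beside 32.1% and 35.4% of all probe sets tested. Between the arms at 6 h, 4 were higher and 5 lower with c-Fos shRNA, which is 15.3%, beside 17.2% of all. The median change of the pathway genes was -0.07 in the c-Fos arm and -0.03 in the control arm, beside -0.02 in both arms for all probe sets tested. No pathway gene was called in an interaction at 1, 3 or 6 h in this fit. These shares lie near the background. The counts leaned on single arrays: the 24 called with control shRNA fell to 15 without control 6 h replicate 2, and the 9 called between the arms fell to 5 without control 6 h replicate 1. With the replicate number as a block, 28 were called with c-Fos shRNA, 30 with control shRNA, 18 between the arms at 6 h and 6 in the 6 h interaction, where 45.6%, 48.6%, 32.6% and 5.44% of all probe sets were. The largest 6 h change among the 59 genes was that of the receptor Ptger4. A pathway gene named below is read on its brightest probe set unless another is named, and its other probe sets may differ.

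Among the 10 prostanoid receptors, of which 6 were tested, Ptger4 rose most. It encodes EP4, a prostaglandin E2 receptor that raises cyclic AMP. Its intensity (1424208_at) at 0 h was 41.2 and 47.2 with c-Fos shRNA, against 89.8 and 98.4 with control shRNA. At 1 h it was 114 on both arrays with c-Fos shRNA, against 157 and 144 with control shRNA. At 3 h it was 258 and 268 with c-Fos shRNA, against 518 and 473 with control shRNA. At 6 h it was 330 and 442 with c-Fos shRNA, against 807 and 913 with control shRNA. Every c-Fos array was below every control array at each time, before KCl as well as after it. The rise at 6 h was 2.78 with c-Fos shRNA (standard error 0.12, adjusted p = 4.83e-08) and 3.07 with control shRNA (adjusted p = 1.73e-08). The c-Fos minus control difference at 0 h was -0.85 (adjusted p = 0.000565), that at 6 h was -1.14 (adjusted p = 8e-05), and the 6 h interaction was -0.29 (adjusted p = 0.601). Ptger4 thus differed between the arms already at 0 h, where Ptgs2 showed no called difference; the contrast between these genes was not tested. Its second probe set (1421073_a_at) had a 6 h change of 1.30 in the c-Fos arm and 1.79 in the control arm, both called, and a 6 h difference between the arms of -0.85 (adjusted p = 0.0349). That difference lost its call without c-Fos 6 h replicate 1 (-0.49, adjusted p = 0.257), control 6 h replicate 1 (-0.87, adjusted p = 0.123) or control 6 h replicate 2 (-0.83, adjusted p = 0.122).

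Ptger3, which encodes EP3, a prostaglandin E2 receptor that lowers cyclic AMP, also rose at 6 h in both arms. Its intensity at 6 h was 285 and 532 with c-Fos shRNA, against 389 and 598 with control shRNA. At 0 h it was 161 and 241 with c-Fos shRNA, against 207 and 263 with control shRNA. The rise was 0.98 with c-Fos shRNA (adjusted p = 0.018) and 1.09 with control shRNA (adjusted p = 0.00937), and the arms overlapped at each of these times. The call in the c-Fos arm was lost without c-Fos 0 h replicate 1 (0.76, adjusted p = 0.138) or c-Fos 6 h replicate 2 (0.61, adjusted p = 0.175). That in the control arm was lost without control 0 h replicate 1 (0.93, adjusted p = 0.0684) or control 6 h replicate 2 (0.81, adjusted p = 0.0891). Their difference at 6 h was -0.30 (95% interval -0.91 to 0.31). Ptgfrn, a protein that binds the prostaglandin F receptor, fell by 0.26 with c-Fos shRNA and by 0.34 with control shRNA at 6 h; the first was not called without c-Fos 0 h replicate 1 (-0.23) or c-Fos 6 h replicate 2 (-0.24). Ptgdr, Ptgfr and Tbxa2r, receptors for other prostanoids, had no called change in those contrasts.

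**Figure D4:**
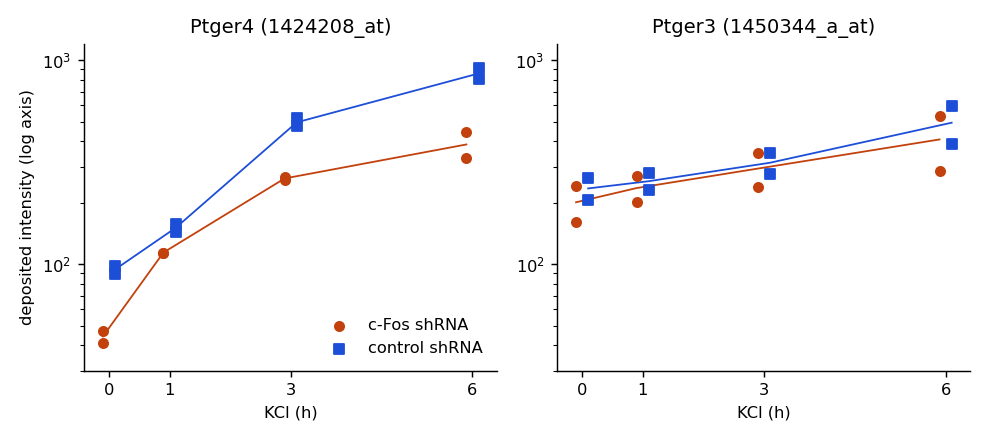
Deposited intensity (log axis) of the prostaglandin E2 receptor genes Ptger4 and Ptger3 against hours of KCl, 1 point per array, with circles for c-Fos shRNA, squares for control shRNA and lines through the group means (n = 2). Ptger4 rises in both arms with the c-Fos arrays below the control arrays at every time, and Ptger3 rises with overlapping arms.

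Among the enzymes that free arachidonic acid, 8 phospholipases were tested. At 6 h of KCl 1 rose and 2 fell with c-Fos shRNA, where 32.1% of all probe sets were called, and 0 rose and 2 fell with control shRNA, where 35.4% were. Between the arms at 6 h, 2 were higher and 1 lower with c-Fos shRNA, where 17.2% of all were called. Pla2g6, the calcium-independent phospholipase A2, was higher with c-Fos shRNA at 6 h by 0.73 (adjusted p = 0.00286) and at 0 h by 0.64 (adjusted p = 0.00672), and fell at 6 h of KCl by 0.57 with c-Fos shRNA and by 0.67 with control shRNA. The call at 0 h was lost without control 0 h replicate 1 (0.50, adjusted p = 0.0788) and the fall in the c-Fos arm without c-Fos 6 h replicate 1 (-0.50, adjusted p = 0.0532). Its other tested probe set (1431277_at) had no called value in those contrasts. Pla2g12a, a secreted phospholipase, was higher with c-Fos shRNA at 6 h by 0.57 (adjusted p = 0.00462) and at 0 h by 0.59 (adjusted p = 0.00371), and the first was lost without control 6 h replicate 1 (0.48, adjusted p = 0.0504). Pla2g15, the lysosomal phospholipase, was lower with c-Fos shRNA, with a 6 h difference of -0.58 (adjusted p = 0.000762) and a 0 h difference of -0.82 (adjusted p = 6.45e-05). Pla2g4e, a cytosolic phospholipase of the group IV family, fell at 6 h of KCl by 1.07 with c-Fos shRNA (adjusted p = 0.000231) and by 0.69 with control shRNA (adjusted p = 0.00396). Pla2g4a, the cytosolic phospholipase usually linked to COX-2, had no called KCl change at 1, 3 or 6 h.

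The diacylglycerol lipases make 2-arachidonoylglycerol, an endocannabinoid that COX-2 can oxidise and that Mgll breaks down to arachidonic acid. Daglb rose at 6 h of KCl by 0.90 with c-Fos shRNA (adjusted p = 0.00134) and by 0.62 with control shRNA (adjusted p = 0.012), and Dagla fell by 0.65 with c-Fos shRNA (adjusted p = 0.000613). Dagla changed by -0.30 with control shRNA (adjusted p = 0.048), a call that held in only 3 of 16 cases of leaving out 1 array (-0.40 to -0.20, adjusted p up to 0.289) and was lost without the low-value filter (adjusted p = 0.0625). The Daglb rise with control shRNA was lost without control 0 h replicate 2 (0.57) or control 6 h replicate 2 (0.55). Daglb was lower with c-Fos shRNA at 0 h, by -0.75 (adjusted p = 0.0092), and at 6 h the difference of -0.47 was called with the replicate block (adjusted p = 0.0303) and not without it (adjusted p = 0.0808). The 0 h call was lost without c-Fos 0 h replicate 1 (-0.51, adjusted p = 0.101) or control 0 h replicate 1 (-0.70, adjusted p = 0.0714).

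Mgll was not called at 6 h, for KCl or between the arms, without the replicate block and was called with it. Its intensity at 6 h was 594 and 933 with c-Fos shRNA, against 986 and 1500 with control shRNA. At 0 h it was 999 and 1500 with c-Fos shRNA, against 1330 and 1830 with control shRNA. Within each replicate number Mgll was lower at 6 h than at 0 h in both arms, and lower with c-Fos than with control shRNA at both times. The 6 h change was -0.67 with c-Fos shRNA (adjusted p = 0.111, and 6.15e-07 with the replicate block) and -0.34 with control shRNA (adjusted p = 0.428, and 0.000299 with the block). The difference between the arms was -0.68 at 6 h (adjusted p = 0.151, and 1.63e-06 with the block), and the 6 h interaction was -0.33 (adjusted p = 0.868, and 0.0385 with the block). Of the 6 tested genes of this endocannabinoid route, 2 rose and 2 fell at 6 h with c-Fos shRNA, where 32.1% of all probe sets were called, and 1 rose and 1 fell with control shRNA, where 35.4% were. With the block 2 rose and 3 fell with c-Fos shRNA, and 1 rose and 3 fell with control shRNA.

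Of 5 tested synthases of other prostanoids, 0 rose and 1 fell at 6 h with c-Fos shRNA, and none was called with control shRNA, where 32.1% and 35.4% of all probe sets were. The one that fell was Prxl2b, a prostamide and prostaglandin F synthase (-0.48, adjusted p = 0.00249). With the replicate block Prxl2b was also called with control shRNA (-0.22, adjusted p = 0.0384) and between the arms at 6 h (-0.24, adjusted p = 0.036). Ptgds, the prostaglandin D synthase of brain, had no called change with KCl, and between the arms it was called with the replicate block averaged over the 4 times (0.27, adjusted p = 0.00125), and not without the block (adjusted p = 0.117). Hpgd, which inactivates prostaglandin E2, was lower with c-Fos shRNA at 0 h by -0.70 (adjusted p = 0.0274) and at 1 h by -0.84 (adjusted p = 0.0118), and at 6 h the difference of -0.40 was not called (adjusted p = 0.202). The 0 h call of Hpgd was lost without any 1 of the 4 arrays compared (-0.74 to -0.66), and the 1 h call without c-Fos 1 h replicate 1 (-0.56) or control 1 h replicate 1 (-0.73). Slco3a1, a prostaglandin transporter, had probe sets that disagreed. At 3 h of KCl in the control arm its brightest probe set (1418030_at) fell by 1.20 and another (1434537_at) rose by 1.15, both called, so no direction is given for the gene.

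Of the relatives of Ptges, Mgst1, a microsomal glutathione transferase, was lower in the c-Fos arm at each of the 4 times, with a 0 h difference of -0.50 (adjusted p = 0.000405) and a 6 h difference of -0.54 (adjusted p = 0.000253). It rose at 6 h of KCl by 0.43 with c-Fos shRNA and by 0.47 with control shRNA. Lta4h, which makes leukotriene B4 from the parallel lipoxygenase route, was lower with c-Fos shRNA by -0.77 at 6 h (adjusted p = 8.1e-05) and fell at 6 h of KCl by 1.00 with c-Fos shRNA and by 0.65 with control shRNA. Its 2 dimmer probe sets had no called value in those contrasts. Among 9 tested Hsp90 and cochaperone genes, the partners of Ptges3, 0 rose and 2 fell at 6 h with c-Fos shRNA, and 1 rose and 5 fell with control shRNA, where 32.1% and 35.4% of all probe sets were called. Fkbp5, a cochaperone of steroid receptors, fell by 0.91 with c-Fos shRNA and by 0.76 with control shRNA.

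Proteins that bind AU-rich elements are known to control the stability and translation of COX-2 mRNA. Of 10 tested, 1 rose and 4 fell at 6 h with c-Fos shRNA, and 2 rose and 4 fell with control shRNA, where 32.1% and 35.4% of all probe sets were called. With the replicate block 4 rose and 4 fell with c-Fos shRNA, and 3 rose and 4 fell with control shRNA. In that setting 45.6% and 48.6% of all probe sets were called. Elavl1 (HuR, known to stabilise such mRNAs) rose by 0.90 with c-Fos shRNA (adjusted p = 0.00353) and by 1.07 with control shRNA (adjusted p = 0.000914). Tia1, known as a translational silencer of COX-2, fell by 1.01 with c-Fos shRNA (adjusted p = 3.48e-06) and by 0.98 with control shRNA (adjusted p = 3.2e-06). These are changes of the brightest probe sets, and those of the other tested probe sets of Elavl1 and Tia1 are not given here. Zfp36l2, of the tristetraprolin family, rose by 0.63 with control shRNA (adjusted p = 0.00215) and had no called change with c-Fos shRNA. Its interaction was called with the replicate block (-0.44, adjusted p = 0.0373) and not without it (adjusted p = 0.388). Between the arms none of the 10 was called at 6 h without the block, where 17.2% of all probe sets were. With it, where 32.6% were, Elavl1 (-0.46, adjusted p = 9.58e-05) and Zfp36l2 (-0.38, adjusted p = 0.00197) were lower with c-Fos shRNA. Averaged over the 4 times both were called lower with c-Fos shRNA without the block as well, Elavl1 by -0.42 (adjusted p = 0.00432) and Zfp36l2 by -0.22 (adjusted p = 0.0166), where 39.1% of all probe sets were called. Zfp36l2 was lower at 1 h (-0.44, adjusted p = 0.0366, called in 11 of 16 cases of leaving out 1 array) and Tia1 higher at 3 h (0.28, adjusted p = 0.0345, called in 12 of 16 cases) with c-Fos shRNA, where 14.5% and 17.1% of all probe sets were called.

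**Figure D5:**
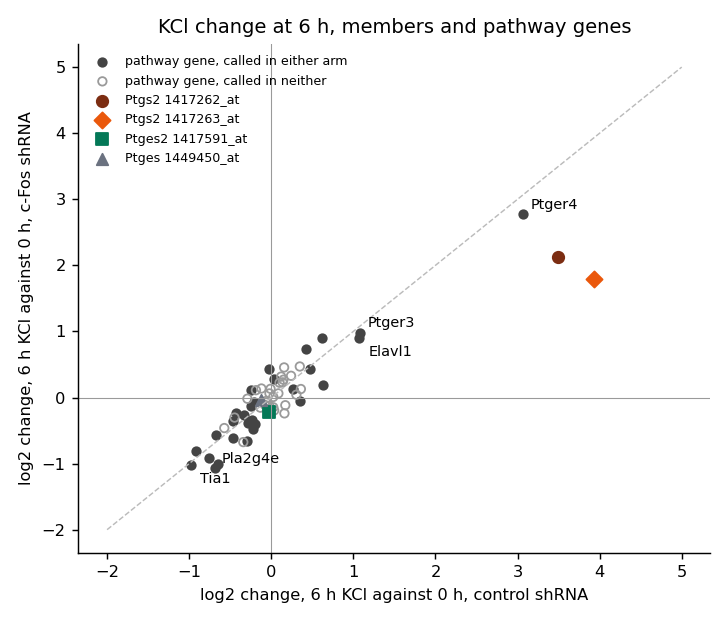
Log2 change at 6 h of KCl against 0 h with control shRNA (horizontal) and with c-Fos shRNA (vertical), with 1 point for each of 59 tested pathway genes and for each of 4 member probe sets, and a dashed line where both arms are equal. Ptger4 lies close to that line at 3.07 and 2.78, while the Ptgs2 probe sets lie below it, at 3.50 and 2.12 and at 3.93 and 1.79.

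The genes whose level followed the brighter Ptgs2 probe set most closely over the 16 arrays were listed by Pearson correlation of log2 levels, as a description. The arrays share the KCl times and the shRNAs, so such a correlation largely follows the design. The 10 highest were Rps27 (0.95), Zwint (0.95), Rgs2 (0.94), Dusp10 (0.94), Ndufs4 (0.92), Ppm1a (0.92), Atf3 (0.92), Nfil3 (0.92), Zc3h12c (0.92) and Rbm12 (0.92). Of these, Atf3 and Nfil3 encode bZIP transcription factors, Rgs2 a regulator of G-protein signalling and Dusp10 a phosphatase of MAP kinases. In all, 40 tested probe sets reached at least 0.9. The dimmer Ptgs2 probe set itself correlated at 0.89 and ranked 77, and Ptger4 at 0.87 and ranked 142. Against the dimmer Ptgs2 probe set, the correlations of those 10 genes ran from 0.79 for Nfil3 to 0.91 for Dusp10. Other probe sets of the same genes varied. For Ndufs4 the other tested probe sets correlated at 0.02 to 0.36, and for Ppm1a at -0.12 to 0.74. For Zwint they correlated at -0.09 to 0.93, and for Rgs2 at 0.40 to 0.93.

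Of these 10 genes, Atf3 showed the largest c-Fos minus control difference at 6 h, -1.24 (adjusted p = 0.00101), and its 6 h interaction was called (-1.75, adjusted p = 0.0223), in 10 of 16 cases of leaving out 1 array. Zc3h12c differed by -0.98 (adjusted p = 0.00199) and Dusp10 by -0.71 (adjusted p = 0.00819) at 6 h, with interactions that were called with the replicate block (adjusted p = 0.0244 for Zc3h12c and 0.00744 for Dusp10) and not without it. The Dusp10 difference lost its call without c-Fos 6 h replicate 1 (-0.61) or control 6 h replicate 2 (-0.57). Nfil3 rose by 2.49 with c-Fos shRNA and by 3.31 with control shRNA at 6 h and differed between the arms at 6 h by -0.32, which was called with the replicate block (adjusted p = 0.000943) and not without it (adjusted p = 0.301). Rgs2 rose by 2.11 with c-Fos shRNA and by 2.30 with control shRNA, and was lower with c-Fos shRNA at 6 h by -0.34 (adjusted p = 0.0394), which was called in 11 of 16 cases of leaving out 1 array (-0.44 to -0.25). Zwint (-0.55, adjusted p = 0.00863) and Ndufs4 (-0.62, adjusted p = 0.0214) were also called lower with c-Fos shRNA at 6 h, each in 14 of 16 cases. These genes were ranked on the same arrays, so their differences are given as values and not as support for that of Ptgs2. Ptges2 correlated with the brighter Ptgs2 probe set at 0.14 and the tested Ptges probe set at 0.04.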

How the data were processed

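The authors deposited 1 linear intensity per probe set and array from Affymetrix mouse expression arrays, which went through Affymetrix processing per the labels' protocols. How probes were summarised and scaled is not given in the sources used here. Detection calls were not used, so no dim probe set was tested against background. Precision is limited by having 2 arrays per group.

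Gene names came from the platform annotation. Of 45037 probe sets that were not array controls, 34945 had 1 gene, 932 had several and 9160 had none. Deposited intensities were turned into log2(intensity + 16) and quantile normalised. Probe sets with a mean above the 30th percentile were kept, which left 31526. limma 3.58.1 in R 4.3.3 (lmFit, then eBayes with an intensity trend) fitted 8 group means over 16 arrays with 8 residual degrees of freedom. p-values were adjusted by Benjamini-Hochberg within a contrast over all probe sets tested, and called under 0.05. All adjusted p-values come from this fit unless a setting is named. The fit was tested on simulated arrays with independent errors. These held no effect shared by replicate number, so that test does not cover such an effect in the real arrays.

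The members, lists and tests were chosen with earlier results of these data known. Every member probe set is described. Pathway genes that were called could be named, and the 10 genes most like Ptgs2 were named by correlation. Genes of the lists that are named without a called value, such as Ptgds, Mgll and Pla2g4a, were chosen after their values were seen.

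The alternatives were no further normalisation, a shift of each array to one median, pseudocounts of 1 and 64, no filter or one at the 50th percentile, 1 probe set per gene, no intensity trend, the replicate number as a block, and leaving out each array. Replicate numbers were read from the labels. Replicate 2 minus replicate 1 correlated across probe sets in all 28 pairs of groups (0.353 to 0.643, median 0.4815), so the numbers were taken to pair the arrays. The main fit does not use this pairing, and in every contrast more probe sets were called with the block than without it. Blocked values stand beside member results whose call they change and beside some of the pathway results.

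Promoter windows are RefSeq sequence on GRCm38.p6.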

Additional observations from a re-analysis of the deposited data

Results flagged for a closer look

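The 6 h KCl response of Ptgs2 on its dimmer probe set differed between the shRNA arms by the test of the interaction, at -2.14 (limma adjusted p = 0.0327). The KCl change was 1.79 in the c-Fos arm and 3.93 in the control arm, and both arrays of the c-Fos arm at 6 h lay below both of the control arm. The brighter probe set gave -1.38 (adjusted p = 0.234). With 2 arrays in each group, no array could be tested for lying apart from its group.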

How the results depend on the processing

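No called value of Ptgs2 changed sign under any alternative. Its 6 h rise in both arms and its 6 h difference between the arms stayed called on both probe sets under every alternative run. Over the arrays left out in turn, the 6 h rise ran from 1.54 to 2.70 with c-Fos shRNA and from 3.30 to 3.69 with control shRNA on the brighter probe set, and from 1.50 to 2.08 with c-Fos shRNA and from 3.74 to 4.12 with control shRNA on the dimmer one. The 3 h difference ran from -1.46 to -1.06 on the brighter probe set and from -1.53 to -0.92 on the dimmer one. With a pseudocount of 1 it was -1.36 on the brighter one (adjusted p = 0.0838). The 6 h interaction of the dimmer probe set ran from -2.43 to -1.85, and was -2.10 without further normalisation and -2.60 with a pseudocount of 1, neither called. The cause of these losses was not tested. Of 1746 member values under alternatives, 1708 kept their side of the threshold, 33 lost the call and 5 gained it, and among the uncalled ones 23 values of Ptges2, 25 of Ptges and 4 of Ptgs2 changed sign. For named pathway genes 207 of 2896 values lost the call and 0 reversed. Those pathway values left out some uncalled results, such as those of Mgll, so calls gained with the replicate block are not counted in them.

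The share of all probe sets called moved more. Without the low-value filter it was 1.80% (1 h), 13.4% (3 h) and 21.3% (6 h) for KCl with c-Fos shRNA, 1.93% (1 h) and 15.1% (3 h) with control shRNA, 9.96%, 9.18%, 10.9% and 10.6% between the arms at 0, 1, 3 and 6 h, and for the interaction 0.0799% at 3 h and 0.195% at 6 h, since more dim probe sets were tested. With the replicate number as a block it was 7.44% (1 h) and 34.5% (3 h) with c-Fos shRNA, 7.61% (1 h) and 36.6% (3 h) with control shRNA, 25.6% (3 h against 1 h) and 25.1% (6 h against 3 h) for the steps in the c-Fos arm, 26.9% and 23.6% for them in the control arm, 29.7%, 28.6%, 31.7% and 32.6% between the arms, and 0.114%, 1.80% and 5.44% for the interaction at 1, 3 and 6 h. The block changed no call of a member beyond those given in the report. The interaction at 1 h was called for 0.00317% without further normalisation, with each array shifted to one median and without the intensity trend, and the 6 h one for 0.257% without that trend. With the filter at the 50th percentile the interaction was called for 0.271% at 3 h and 0.773% at 6 h, and with 1 probe set per gene for 0.0431%, 0.402% and 1.24% at 1, 3 and 6 h.

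Leaving out 1 array at a time gave 1.47% to 2.78% (1 h) and 12.8% to 21.2% (3 h) for KCl with c-Fos shRNA, and 1.46% to 3.12% and 14.8% to 23.6% with control shRNA. For 3 h against 1 h it gave 6% to 12.7% in the c-Fos arm and 7.55% to 14.6% in the control arm, and for 6 h against 3 h 4.03% to 10.7% and 4.55% to 10.4% in the same arms. It gave 8.68% to 16%, 6.90% to 14.4%, 8.70% to 17.3% and 9.55% to 17.3% between the arms at 0, 1, 3 and 6 h, and 0.00317% to 0.00634%, 0.0159% to 0.121% and 0.0761% to 0.416% for the interaction at 1, 3 and 6 h.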
